A study of Mus musculus with 2 samples.

Results

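Interferon-responding cells were described among Tregs of mouse spleen, the regulatory subset of CD4 T cells that restrains immune responses and was profiled here by single-cell RNA sequencing. A cell was counted as interferon-responding when at least 3 of 8 marker genes (Ifit1, Ifit3, Ifit3b, Rsad2, Usp18, Cmpk2, Oasl2 and Isg15) each had at least 1 unique molecular identifier (UMI, a tag for 1 captured RNA molecule). By this rule 779 of 12953 kept cells were members, out of 14150 barcodes in all. The members came from 2 libraries, with 390 in CD25KO and 389 in CD25WT. The members were selected on the UMIs of the 8 markers, so these values, and every difference between members and the other cells, are given as descriptions with no test.

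The CD25KO library held cells of genotype CD25FL/FL-tdTomato+/+-Foxp3eGFPCretERT2+/+, and the CD25WT library cells of genotype CD25WT/WT-tdTomato+/+-Foxp3eGFPCretERT2+/+. Mice of both genotypes received tamoxifen intraperitoneally at 2 mg/kg for 5 days, and spleens were taken 10 days after induction. CD25 is the product of Il2ra and the high-affinity subunit of the receptor for interleukin-2. The Foxp3 allele drives GFP and a tamoxifen-activated Cre recombinase in both genotypes, so deletion of the floxed gene was limited to cells that express Foxp3. Cells were sorted as live, CD4-positive, GFP-positive and tdTomato-positive, and the CD25KO cells were also gated as CD25lo, a gate that the CD25WT cells did not pass through. Each library pooled 2 spleens, which leaves 1 library per genotype and no replicate, so no difference between CD25KO and CD25WT could be tested. Intervals below are exact, at the 95% level, and cover counting error only.

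Interferons are cytokines released on infection and at low levels at rest. Type I interferons bind a receptor of the chains IFNAR1 and IFNAR2, whose kinases JAK1 and TYK2 activate STAT2. With IRF9 it forms part of a complex that binds the interferon-stimulated response element, a repeated GAAA motif in the promoters of interferon-stimulated genes, and the products of those genes block viral replication, detect viral nucleic acid or damp the signal. Interferon gamma acts through another receptor, and it induces an overlapping set that includes GTPases, antigen-presentation genes and chemokines.

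The members were deeper than the other cells, with a median of 5331.5 UMIs in CD25KO members and 4103 in other CD25KO cells, and 6124 in CD25WT members and 5162.5 in other CD25WT cells. Totals over all barcodes were close, at 36986849 UMIs in CD25KO and 36971834 in CD25WT. The share of ribosomal protein UMIs differed between the libraries, at 30.9% in CD25KO members and 38.2% in CD25WT members, and at 31.0% and 39.4% in the other cells. Median mitochondrial shares of members were 4.30% in CD25KO and 4.18% in CD25WT. The libraries shared 107 barcode sequences, which included 3 members of each library and 0 that were members in both. No doublet caller was run, and 29 CD25KO and 37 CD25WT members lay among the highest 5% of cells by UMIs.

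The 8 markers encode antiviral effectors and regulators, and they lie in 5 chromosomal places (GENCODE release 21, mm10). Ifit3 (chr19:34583531-34588731), Ifit3b (chr19:34607970-34613401) and Ifit1 (chr19:34640871-34650009) form a cluster of plus-strand genes whose products bind foreign RNA and block its translation. Rsad2 (chr12:26442746-26456452), which encodes the antiviral enzyme viperin, stands back to back with Cmpk2 (chr12:26469204-26479837), a mitochondrial nucleotide kinase. Isg15 (chr4:156199424-156200818) encodes a ubiquitin-like protein that is attached to other proteins, and Usp18 (chr6:121245906-121270917) the protease that removes it and that also shuts down the type I receptor. Oasl2 (chr5:114896936-114912234) encodes a protein related to the oligoadenylate synthetases, which sense double-stranded RNA.

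Promoter sequences are shown for the 5 markers in which the interferon-stimulated response element was found, since this shared stretch is a feature the rule did not use. RefSeq windows on GRCm38.p6, the build also called mm10, were searched from 250 bases before to 50 after each gene start for GAAANNGAAA on both strands, which reads TTTCNNTTTC on the other strand. Of the 8 markers, 7 had a window in the table, and Usp18 was not among them. Sequences are written 5′ to 3′ along the strand of the gene, and the capitals mark the matches.
Isg15, chr4:156200819-156201068, minus strand: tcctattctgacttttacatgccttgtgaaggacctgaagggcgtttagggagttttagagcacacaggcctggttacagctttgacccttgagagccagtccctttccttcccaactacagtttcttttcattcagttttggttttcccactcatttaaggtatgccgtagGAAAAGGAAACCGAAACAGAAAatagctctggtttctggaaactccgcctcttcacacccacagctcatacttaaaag
Ifit1, chr19:34640639-34640888, plus strand: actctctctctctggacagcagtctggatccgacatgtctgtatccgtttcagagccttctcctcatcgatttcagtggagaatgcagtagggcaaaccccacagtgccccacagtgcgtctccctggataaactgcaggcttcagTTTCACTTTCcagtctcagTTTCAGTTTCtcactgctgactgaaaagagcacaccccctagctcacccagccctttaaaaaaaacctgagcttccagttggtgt
Ifit3, chr19:34583348-34583441, plus strand: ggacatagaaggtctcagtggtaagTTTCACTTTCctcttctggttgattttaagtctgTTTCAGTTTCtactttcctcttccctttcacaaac
Ifit3b, chr19:34607744-34607837, plus strand: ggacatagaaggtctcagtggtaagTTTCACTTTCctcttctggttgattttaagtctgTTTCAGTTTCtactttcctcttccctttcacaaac
Rsad2, chr12:26456538-26456597, minus strand: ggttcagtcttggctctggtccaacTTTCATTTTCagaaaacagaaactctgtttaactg

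Isg15 had 3 overlapping matches that began 78, 72 and 66 bases before its start, and they merge into the single run of capitals above. Ifit1 had 2 matches, 104 and 85 bases before its start. Ifit3 and Ifit3b carried the same 94 bases with 2 matches each, at 156 and 122 bases before the Ifit3 start and 188 and 154 before the Ifit3b start. Rsad2 had 1 match 120 bases before its start, while no match lay in the windows of Oasl2 and Cmpk2. In the full set of windows, 1079 of 27025 genes (3.99%) had a match, as did 1131 of 32851 windows (3.44%). Matches were found for 10 of 11 GTPase genes of the GBP and IRG families with a window, 9 of 11 of the IFI200 family and 17 of 43 genes of a longer type I interferon list. Effector Treg genes had 0 of 10 and Treg identity genes 0 of 8, which lists this short can also give at the 3.99% of all genes. Some other lists held matches too, with 5 of 17 MHC class I, 2 of 7 natural killer cell, 1 of 5 B cell and 1 of 5 follicular regulatory genes. A match is a run of letters in these windows and not a measured binding site.

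Isg15 and Ifit1 were the markers found in most members. Isg15 stood at 692 counts per 1000000 UMIs (CPM) in CD25KO members and 91.1 in other CD25KO cells, and at 529 CPM in CD25WT members and 54.5 in other CD25WT cells. It had a UMI in 90.8% of CD25KO members and 26.9% of other CD25KO cells, and in 89.2% and 19.6% in CD25WT. The share in other cells shows how far Isg15 alone is from marking the population. Ifit1 stood at 448 CPM in CD25KO members and 18.5 in other CD25KO cells, and at 463 CPM in CD25WT members and 22.6 in other CD25WT cells, with a UMI in 80.8% and 7.19% of the CD25KO cells and in 83.3% and 9.15% of the CD25WT cells.

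Ifit3 and its near-copy Ifit3b were close to absent outside the members. Ifit3 stood at 199 CPM in CD25KO members and 5.85 in other CD25KO cells, and at 235 and 5.21 CPM in CD25WT. Ifit3b stood at 60.4 and 1.06 CPM in CD25KO and at 58.1 and 1.30 CPM in CD25WT. Of the 60-base stretches in the last 500 bases of Ifit3 transcripts, 12.9% also occur in Ifit3b, and the sources used here do not say how the counting treated such reads. The rule without Ifit3b kept 372 CD25KO and 371 CD25WT members.

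The remaining markers were sparse. Rsad2 stood at 136 CPM in CD25KO members and 4.46 in other CD25KO cells, and at 103 and 3.49 CPM in CD25WT. Usp18 stood at 144 and 10.4 CPM in CD25KO, and at 174 and 16.6 CPM in CD25WT. Oasl2 and Cmpk2 stood at 80.5 and 54.4 CPM in CD25KO members and at 57.0 and 48.0 CPM in CD25WT members, with 5.31 CPM or less in the other cells of either library. Cmpk2 had a UMI in 91 CD25KO and 91 CD25WT members, so most members met the rule without it. Members held 49.2% of all UMIs of the 8 markers in the CD25KO library and 55.3% in the CD25WT library.

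The members made up a similar small share of both libraries, and which library had more of them differed before and after thinning. They were 390 of 6902 kept CD25KO cells (5.65%, Clopper-Pearson interval 5.12% to 6.22%) and 389 of 6051 kept CD25WT cells (6.43%, 5.82% to 7.08%). When each cell was thinned to 2000 UMIs, which left out 372 CD25KO and 88 CD25WT cells, they were 160 of 6530 CD25KO cells (2.45%, 2.09% to 2.85%) and 138 of 5963 CD25WT cells (2.31%, 1.95% to 2.73%). The 2 intervals overlapped after thinning, which changed both the depth and the set of cells, since 9 CD25KO and 0 CD25WT members were among the cells left out. Cells with a Cd79a UMI, which the rule removes as B cells, met the marker condition in 3 of 50 cells in CD25KO (6.0%, 1.25% to 16.5%, median 4566 UMIs) and 2 of 59 in CD25WT (3.39%, 0.413% to 11.7%, median 5250 UMIs). These intervals hold the members' shares.

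The number of markers per cell fell off smoothly, with no gap at the threshold. In CD25KO, 3929, 2041 and 542 cells had 0, 1 and 2 markers, and 197, 94 and 49 cells had 3, 4 and 5. In CD25WT, 3567, 1607 and 488 cells had 0, 1 and 2 markers, and 193, 96 and 48 cells had 3, 4 and 5. Cells with 6 to 8 markers numbered 50 in CD25KO and 52 in CD25WT, which is 12.8% and 13.4% of the members, and they held 35.3% and 40.1% of the members' marker UMIs. A median member had 7 marker UMIs in either library, and the highest had 73 in CD25KO and 131 in CD25WT.

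**Figure D1:**
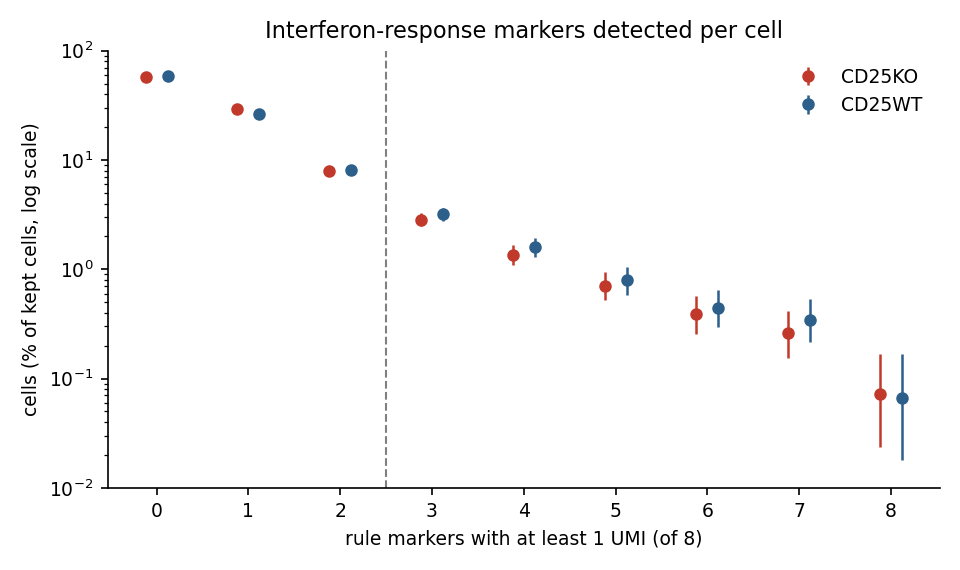
Share of kept cells (%, log axis) by the number of the 8 rule markers with a UMI, in CD25KO and CD25WT. Bars are exact 95% binomial intervals, counting error only, and the dashed line marks the rule, with 197 CD25KO and 193 CD25WT cells just inside it and 542 and 488 just outside.

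The name of the population was checked against lineage markers. The list of CD4 T cell genes summed to 8278 CPM in CD25KO members and 8800 in other CD25KO cells, and to 6892 and 7190 CPM in CD25WT. Foxp3, the Treg-defining transcription factor, had a UMI in 34 CD25KO and 82 CD25WT members, and in 655 and 881 of the other cells, so it is too sparse to sort members by. Ikzf2, which encodes the Treg transcription factor Helios, stood at 1413 CPM in CD25KO members and 1633 in other CD25KO cells, and at 720 and 743 CPM in CD25WT. Lyz2, a myeloid marker, had 1 UMI in CD25KO members and 2 in CD25WT members, and Siglech, which marks plasmacytoid dendritic cells, had 0 and 1. The dendritic list summed to 439 CPM in CD25KO members and 191 in other CD25KO cells, and to 382 and 175 CPM in CD25WT, and its 1 measured gene was Bst2, which is itself an interferon-stimulated gene. The myeloid list summed to 138 CPM in CD25KO members and 168 in other CD25KO cells, and to 103 and 142 CPM in CD25WT.

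Against the name, a few members were rich in haemoglobin RNA. Cells with at least 1% haemoglobin UMIs numbered 21 in CD25KO and 28 in CD25WT, and 6 and 5 of them were members. Haemoglobin made up a median of 51.7% of the UMIs of these 6 CD25KO members and 76.7% of the 5 CD25WT members, and all 11 had an Rsad2 UMI while 0 and 1 had an Ifit3 UMI. They also held T cell receptor and CD3 UMIs, with medians of 27.5 and 18, against 37.5 and 34 in the other members. The erythroid list summed to 13100 CPM in CD25KO members and 1576 in other CD25KO cells, and to 16984 and 3309 CPM in CD25WT. Without the haemoglobin-rich cells, the log2 ratio of Hbb-bs, a beta-globin gene, over the other cells went to -0.11 in CD25KO and -0.07 in CD25WT, and members were 384 of 6881 CD25KO and 384 of 6023 CD25WT cells.

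Outside the 8 markers, the genes higher in members included many interferon-stimulated genes and also the haemoglobin genes. Leaving out the markers, 2631 genes in CD25KO averaged 50 CPM or more over the groups compared and count as measured, and of these 54 (2.05%) were 2-fold or more higher in members than in other cells and 2 (0.076%) 2-fold or more lower. In CD25WT, 43 of 2291 genes (1.88%) passed 2-fold upward and 0 (0%) downward. Those higher included 24 genes of the type I list, 7 of the IFI200 family, 3 of the Schlafen family and 9 of the GBP and IRG GTPases in CD25KO, and 19, 6, 2 and 7 in CD25WT. They also included 4 of 4 measured genes of the erythroid list in both libraries, with log2 ratios of 2.87 to 3.16 in CD25KO and 2.28 to 2.61 in CD25WT. Of the 25 highest genes in both libraries, ranked without haemoglobin genes, 23 belonged to the lists of interferon-stimulated genes, namely 14 to the type I list, 4 to the IFI200 family, 2 to the Schlafen family and 3 to the GBP and IRG GTPases. Phf11c and Rnf213 stood outside them. Of the stretches of Phf11c, 63% occur in another gene model, so its own level is uncertain. The rule used this contrast, and these counts describe what was selected together with the markers.

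Of the transcription factors of the pathway, Irf7 was among the 25. Irf7, the factor that amplifies type I interferon responses, stood at 132 CPM in CD25KO members and 26.3 in other CD25KO cells (log2 ratio 2.33, interval 2.14 to 2.51), and at 128 and 24.8 CPM in CD25WT (2.37, 2.18 to 2.55). Stat2 averaged too low to count as measured, at 59.99 and 19.6 CPM in CD25KO and at 50.2 and 17.4 CPM in CD25WT. Irf9 did not reach 2-fold and stood at 116 and 73.8 CPM in CD25KO and at 127 and 78.9 CPM in CD25WT.

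The 25 genes included sensors of nucleic acid. Zbp1, a sensor of Z-form nucleic acid, stood at 272 CPM in CD25KO members and 92.6 in other CD25KO cells, and at 196 and 67.0 CPM in CD25WT, a log2 ratio of 1.55 in either library. Ddx58, which encodes the RNA sensor RIG-I, stood at 98.2 and 36.0 CPM in CD25KO and at 97.5 and 36.4 CPM in CD25WT. The IFI200 family, DNA-binding proteins encoded side by side on chromosome 1, had 7 of 7 measured genes at least 2-fold higher in CD25KO members (median log2 ratio 1.75, against -0.05 over all genes) and 6 of 7 in CD25WT members (1.65, against -0.03). Ifi206 stood at 238 and 67.3 CPM in CD25KO and at 265 and 82.0 CPM in CD25WT. Ifi208, Ifi213 and Ifi214 had log2 ratios between 1.65 and 1.99 in both libraries. Of the stretches of Ifi206, 155 of 739 occur in another gene model, and of those of Ifi214, 397 of 1579, so their separate levels are uncertain.

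The type I list gave 14 of the 25 genes. Rtp4, a gene induced by type I interferon, stood at 222 CPM in CD25KO members and 53.8 in other CD25KO cells (2.05, 1.90 to 2.18), and at 214 and 55.0 CPM in CD25WT (1.96, 1.82 to 2.10). Isg20, an exonuclease that degrades RNA, stood at 182 and 55.5 CPM in CD25KO and at 159 and 38.9 CPM in CD25WT. Bst2, which encodes tetherin, stood at 379 and 136 CPM in CD25KO and at 343 and 139 CPM in CD25WT. Ifit1bl1, a further gene of the IFIT family, stood at 110 and 23.1 CPM in CD25KO and at 136 and 37.0 CPM in CD25WT. Xaf1, Samd9l, Daxx and Phf11b had log2 ratios between 1.30 and 1.74 in both libraries. Phf11b is uncertain, since 36.7% of its stretches occur in another gene model. Over the type I list, 24 of 35 measured genes were at least 2-fold higher in CD25KO members (median 1.36) and 19 of 30 in CD25WT members (median 1.33), and Ifi27 was the gene below 0, at -0.41 and -0.50.

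Slfn5 had the highest ratio of the 25 genes in CD25KO. It encodes a Schlafen protein, a family tied to T cell quiescence and restriction of viruses, and stood at 258 CPM in CD25KO members and 49.3 in other CD25KO cells (2.39, 2.25 to 2.52), and at 319 and 76.5 CPM in CD25WT (2.06, 1.94 to 2.17). Slfn8 and Slfn1 had log2 ratios of 1.51 and 1.29 in CD25KO and 1.48 and 0.91 in CD25WT. Slfn2 was slightly higher, at 744 and 592 CPM in CD25KO (0.33) and at 723 and 579 CPM in CD25WT (0.32).

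GTPases that attack the membranes around intracellular microbes were higher too. Of the GBP and IRG genes, 9 of 10 measured passed 2-fold upward in CD25KO members (median 1.204) and 7 of 8 in CD25WT members (1.27). Iigp1 stood at 516 CPM in CD25KO members and 197 in other CD25KO cells, and at 341 and 111 CPM in CD25WT. Gbp2 stood at 152 and 63.2 CPM in CD25KO and at 124 and 51.8 CPM in CD25WT. Gbp6 had log2 ratios of 1.5 and 1.78, but 87.3% of its stretches occur in another gene model, so its own level is uncertain. Genes that modify proteins by ubiquitin, ubiquitin-like proteins or ADP-ribose were also among the 25 highest. These were Herc6 (1.87 in CD25KO and 1.72 in CD25WT), Rnf213 (1.85 and 1.54), Trim30a (1.49 and 1.44) and Parp9 (1.41 and 1.57).

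**Figure D2:**
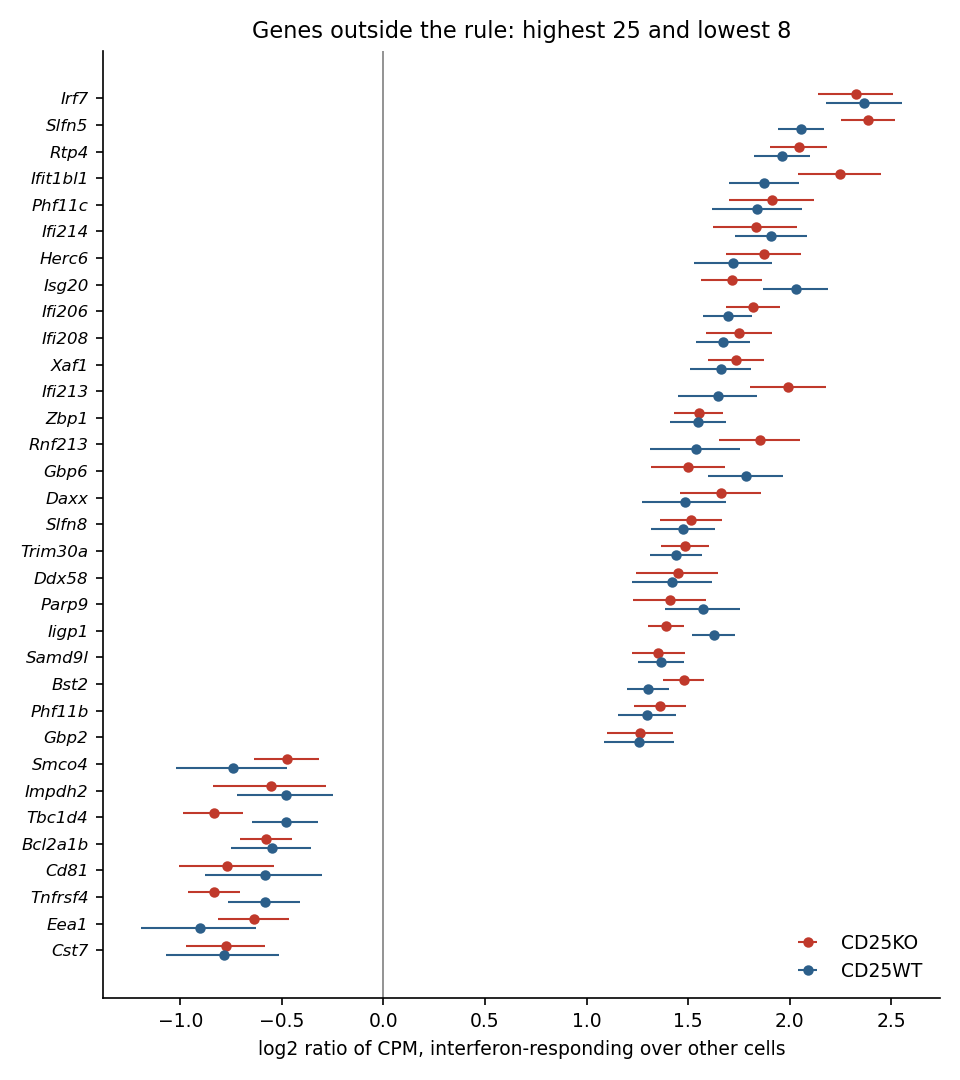
Log2 ratio of CPM, interferon-responding over other cells, for the 25 highest and 8 lowest genes outside the rule, in CD25KO (upper point of each pair) and CD25WT (lower point). Bars are exact 95% counting intervals. The 25 highest lie between 1.26 and 2.39 and the 8 lowest between -0.90 and -0.48 in both libraries.

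The receptors and the interferons themselves did not follow their targets. Ifnar1 stood at 63.2 CPM in CD25KO members and 53.7 in other CD25KO cells, and at 54.0 and 53.6 CPM in CD25WT. Ifnar2, Ifngr1 and Jak1 had log2 ratios of -0.01, -0.11 and 0.07 in CD25KO and 0.09, -0.28 and 0.00 in CD25WT. Ifnb1 had no UMI in either library. The list of 21 interferon genes summed to 28 UMIs in CD25KO members (11.3 CPM, against 7.61 in other CD25KO cells) and 9 UMIs in CD25WT members (3.37 CPM, against 3.39), and Ifng, the gene of interferon gamma, accounted for 27 and 9 of these, in 18 CD25KO and 3 CD25WT members. Type I and type III interferon genes thus had at most 1 UMI in the members of a library. Of the genes that damp the signal, Socs1 stood at 124 and 82.7 CPM in CD25KO and at 166 and 104 CPM in CD25WT, while Socs3 had log2 ratios of 0.15 and 0.12.

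Antigen-presentation genes of the MHC class I list were slightly higher in members. None of 19 measured genes in CD25KO and 0 of 16 in CD25WT was at least 2-fold higher, while 16 and 14 of them were above 0. The medians were 0.20 and 0.23, against -0.05 and -0.03 over all genes. Tap1, the peptide transporter, stood at 187 CPM in CD25KO members and 137 in other CD25KO cells, and at 144 and 101 CPM in CD25WT. H2-K1, a classical class I heavy chain, stood at 3150 and 3196 CPM in CD25KO and at 2611 and 2659 CPM in CD25WT. Ly6a, which encodes the surface protein Sca-1, was at a log2 ratio of 0.97 in CD25KO and 0.77 in CD25WT.

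The 4 lists of interferon-stimulated genes rose step by step with the number of markers detected, also below the threshold. Without the haemoglobin-rich cells, the type I list summed to 8139 CPM in CD25KO cells with 0 markers, 10984 with 2, 13856 with 3 and 26182 with 6 to 8. In CD25WT it summed to 7007, 9158, 11147 and 20459 CPM at the same steps. Relative to cells with 0 markers, cells with 6 to 8 had 5.05 times the IFI200 level, 4.62 times the GBP and IRG level and 3.58 times the Schlafen level in CD25KO, and 4.61, 5.01 and 3.16 times in CD25WT. The MHC class I list reached 1.31 times in CD25KO and 1.21 times in CD25WT. Cells with 2 markers, just outside the population, were already at 1.35 times the type I level of 0-marker cells in CD25KO and 1.31 times in CD25WT, against 1.70 and 1.59 times for cells with 3 markers. The threshold thus cuts a range, and 542 CD25KO and 488 CD25WT cells lie 1 marker below it.

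**Figure D3:**
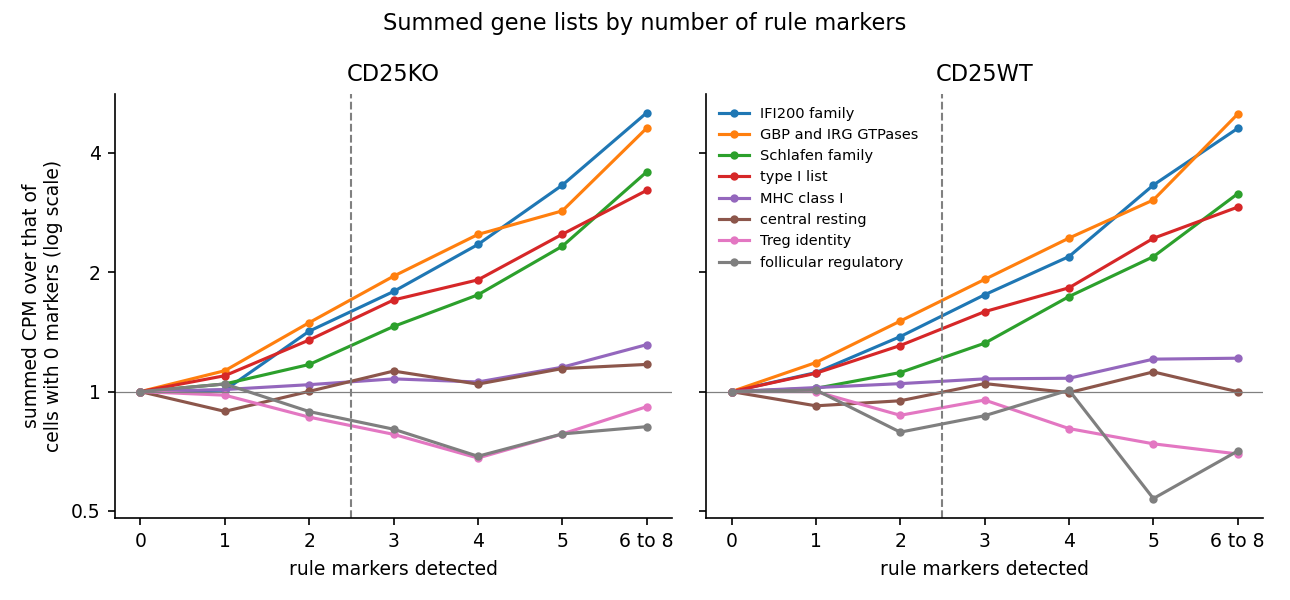
Summed CPM of 8 gene lists relative to cells with 0 rule markers (log axis) by the number of rule markers detected, in CD25KO (left) and CD25WT (right), without haemoglobin-rich cells. The 4 interferon-stimulated lists reach 3.22 to 5.05 times in CD25KO and 2.92 to 5.01 times in CD25WT, and the other 4 lists stay between 0.54 and 1.31 times; the dashed line marks the rule.

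A smaller set of genes was lower in members. Tnfrsf4, which encodes the co-stimulatory receptor OX40, stood at 207 CPM in CD25KO members and 368 in other CD25KO cells (-0.83, -0.96 to -0.71), and at 105 and 158 CPM in CD25WT (-0.59, -0.76 to -0.41). Tbc1d4, a regulator of glucose transporter traffic, stood at 159 and 285 CPM in CD25KO and at 126 and 175 CPM in CD25WT. Cst7, which encodes the protease inhibitor cystatin F, stood at 92.6 and 158 CPM in CD25KO and at 42.4 and 73.1 CPM in CD25WT. Izumo1r, the folate receptor 4 of Tregs, stood at 486 and 727 CPM in CD25KO and at 375 and 518 CPM in CD25WT. The Treg identity list as a whole summed to 2910 CPM in CD25KO members and 3713 in other CD25KO cells (-0.35, -0.39 to -0.32), and to 1852 and 2158 CPM in CD25WT (-0.22, -0.26 to -0.18). Its 8 measured genes were below 0 in 8 of 8 cases in CD25KO and 7 of 8 in CD25WT, with medians of -0.33 and -0.20 against -0.05 and -0.03 over all genes, and 0 passed 2-fold. Without haemoglobin-rich cells, the list was compared with cells of 0 markers. It stood at 0.68, 0.78 and 0.92 times in CD25KO cells with 4, 5 and 6 to 8 markers. In CD25WT it stood at 0.81, 0.74 and 0.70 times, so only CD25WT fell further over these steps.

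Among the lists of Treg states, the central resting and effector lists differed little between members and other cells. The central resting list summed to a log2 ratio of 0.19 (0.15 to 0.24) in CD25KO and 0.07 (0.03 to 0.10) in CD25WT, and the effector list to 0.10 (0.08 to 0.13) and 0.06 (0.02 to 0.11). In CD25WT the 1 effector gene past 2-fold was Ccl5 (1.41), which rested on few cells. In cells with 6 to 8 markers, relative to cells with 0, the effector list stood at 1.33 times in both libraries. The central resting list stood at 1.17 times in CD25KO and 0.999 times in CD25WT. The effector list did not rise step by step, since with 4 and 5 markers it stood at 0.88 and 1.28 times in CD25KO and at 1.125 and 0.46 times in CD25WT. The follicular regulatory list was lower, at log2 ratios of -0.39 in CD25KO and -0.24 in CD25WT. Sostdc1, a secreted antagonist of BMP and Wnt signals, stood at -1.10 in CD25KO. In CD25WT only 2 genes of this list were measured, at -0.02 and -0.05, near the median of -0.03 over all genes. The recently stimulated list stood at -0.43 (-0.52 to -0.34) in CD25KO and -0.02 (-0.11 to 0.06) in CD25WT, and the cycling list at -0.08 and -0.02. Cells with at least 3 central resting markers held members at 7.18% in CD25KO (6.399% to 8.03%) and 7.07% in CD25WT (6.38% to 7.82%), against 3.59% and 3.45% of the remaining cells. Thinning to 2000 UMIs brought these shares to 2.87% and 2.24% in CD25KO and to 2.34% and 2.28% in CD25WT, with overlapping intervals. Members were found in each of the states scored, at 5.02% to 7.18% of CD25KO cells and 6.05% to 8.87% of CD25WT cells, counting the effector, follicular, cycling and recently stimulated states as well.

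The targeted gene was checked before the genotypes were compared. Il2ra stood at 27.4 CPM in CD25KO members and 145 in CD25WT members (-2.41, -2.80 to -2.03), and at 32.7 and 123 CPM in the other cells. Deletion of the gene and the CD25lo gate cannot be told apart here, and the sources used here do not say which exons are removed. Over all genes the median log2 ratio of CD25KO over CD25WT was 0.18 in members and 0.21 in the other cells, and scalings that remove this shift are given beside the counts.

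The lists of interferon-stimulated genes differed between the genotypes in members by 0.30 or less on the log2 scale. The 8 markers, whose level in members the rule itself sets in both libraries, summed to 1814 CPM in CD25KO members and 1668 in CD25WT members, a log2 ratio of 0.12 (0.06 to 0.18) that lies below the 0.18 shift of all genes and turned to -0.09 under TMM scaling. The type I list summed to 16388 CPM in CD25KO members and 13343 in CD25WT members, a log2 ratio of 0.30 (0.28 to 0.32), against 0.22 (0.22 to 0.23) in the other cells, and under TMM these were 0.08 and -0.01. Of 41 measured genes of this list 1 passed 2-fold upward in CD25KO members, beside 64 of 2438 over all genes (2.63%), namely Lgals3bp, which encodes a galectin-3-binding protein, at 138 and 67.9 CPM. The IFI200 list stood at 0.07 (0.02 to 0.12), the Schlafen list at 0.01 (-0.05 to 0.07) and the GBP and IRG list at 0.25 (0.20 to 0.30). The separate list of interferon gamma targets stood at 0.68 (0.57 to 0.79), against 0.61 (0.58 to 0.64) in the other cells. Only 2 of its 4 measured genes in members, Cxcl10 and Cd74, passed 2-fold. The other measured genes, Irf1 and Socs1, stood at 0.04 and -0.42, below the 0.18 shift of all genes, so the list did not rise as a set. Slfn5 was lower in CD25KO members (-0.30, -0.45 to -0.15) and in the other CD25KO cells (-0.63, -0.72 to -0.54).

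Genes outside the response also differed between the genotypes, in members and in the other cells. Of 2438 genes measured in members, 64 (2.63%) passed 2-fold upward in CD25KO and 10 (0.41%) downward, against 67 (2.69%) and 19 (0.763%) of 2490 in the other cells. With TMM factors, 41 were higher and 21 lower in members, so the share of higher genes was 66.1% in place of 86.5%. It was 71.4% with median-of-ratios factors and 71.0% with totals that leave out ribosomal protein and mitochondrial genes. All 10 highest and all 10 lowest genes in members had the same sign in the other cells, as plotted in the comparison of genotype ratios.

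The 10 highest genes included 4 of the effector list, after Cxcl10, the highest of them. S100a6, a calcium-binding protein, stood at 1147 CPM in CD25KO members and 209 in CD25WT members (2.46, 2.33 to 2.59), and at 1008 and 201 CPM in the other cells. Itgb1, the integrin beta-1 chain, stood at 496 and 133 CPM in members and at 442 and 155 CPM in the other cells. Of the effector list 8 of 9 measured genes were at least 2-fold higher in CD25KO members (median 1.81) and 9 of 9 in the other cells (1.69). S100a4 and S100a11 share 46.4% and 40.8% of their stretches with other gene models and are uncertain. Cd74, the invariant chain of MHC class II, stood at 111 and 23.2 CPM in members and at 134 and 53.5 CPM in the other cells. The B cell list, which itself includes Cd74, stood at 490 and 246 CPM in members, and the part of B cell RNA in the result was not tested.

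The 10 lowest genes included Igfbp4, Bcl2 and Ly6c1. Igfbp4, a growth factor-binding protein, stood at 15.7 CPM in CD25KO members and 127 in CD25WT members (-3.01, -3.53 to -2.53), and at 11.8 and 116 CPM in the other cells. Bcl2, which protects T cells from apoptosis, stood at 160 and 411 CPM in members and at 171 and 429 CPM in the other cells. Ly6c1 stood at 46.7 and 134 CPM in members (-1.52, -1.84 to -1.22) and at 15.7 and 90.9 CPM in the other cells (-2.53, -2.67 to -2.40), with 24.1% of its stretches shared with Ly6c2. Of 9 measured central resting genes 2 were at least 2-fold lower in CD25KO members and 4 in the other cells, while Il7r and Tcf7 stood at 0.42 and 0.36 in members.

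**Figure D4:**
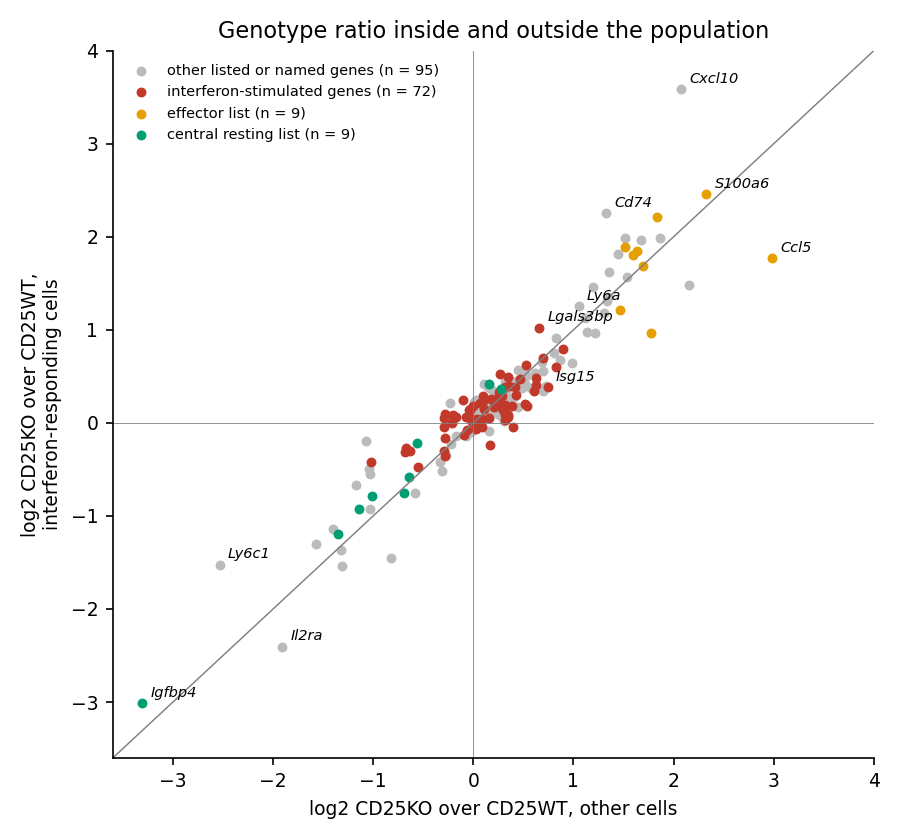
Log2 ratio of CD25KO over CD25WT in interferon-responding cells (vertical) and in the other cells (horizontal) for listed or named genes measured in members. The line marks equal ratios. Points labelled interferon-stimulated genes are the rule markers and the type I, IFI200, Schlafen, and GBP and IRG lists. Most of them lie near 0, with Lgals3bp at 1.02 in members, and effector genes lie upper right. Cxcl10, of the interferon gamma list and not in that class, lies at 3.59 in members and 2.07 in the other cells.

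Cxcl10 had the highest ratio between the genotypes in members. It encodes the chemokine that recruits cells bearing CXCR3. It stood at 185 CPM in CD25KO members and 15.4 in CD25WT members (3.59, 3.12 to 4.09), and at 74.7 and 17.7 CPM in the other cells (2.07, 1.94 to 2.21). Over the alternatives tried, the ratio in members lay between 2.85 and 3.8. UMIs of Cxcl10 were found in 74 CD25KO members, with 34 of 459 in the highest cell, and in 18 CD25WT members, with 7 of 41 in the highest. Its level in cells with a Cd79a UMI was 7.64 CPM in CD25KO (2 UMIs, 0.926 to 27.6) and 2.85 CPM in CD25WT (1 UMI, 0.0721 to 15.9). In haemoglobin-rich cells it was 34.6 CPM in CD25KO (6 UMIs, 12.7 to 75.3) and 3.59 CPM in CD25WT (1 UMI, 0.0908 to 19.98).

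Cxcl10 did not rise smoothly with the number of markers as the lists did. In CD25KO it stood at 71.1, 79.7, 76.8, 79.3 and 73.4 CPM in cells with 0, 1, 2, 3 and 4 markers, then at 262 CPM (208 to 325) with 5 and 751 CPM (658 to 854) with 6 to 8. In CD25WT it stood at 17.3, 18.5, 18.2, 5.20 and 18.2 CPM with 0 to 4 markers, 3.02 CPM with 5 and 57.0 CPM (35.7 to 86.2) with 6 to 8. The CD25WT levels with 3, 4 and 5 markers rest on 7, 11 and 1 UMIs. With 2 markers, 1 cell held 33 of 59 UMIs, so the order of these CD25WT levels is uncertain. The strongest responders, with 6 to 8 markers, carried Cxcl10 in 21 of 50 CD25KO cells and 8 of 52 CD25WT cells. In the same cells Ifit1 stood at 1344 CPM in CD25KO and 1336 in CD25WT, but it is a rule marker and these cells were chosen by the markers. Slfn5 stood at 812 and 1018 CPM. Cxcl10 was not the only gene higher in these CD25KO cells. Ly6a stood at 1105.5 and 476 CPM (log2 ratio 1.21, 0.95 to 1.48), and Ifi27l2a at 7310 and 3679.5 CPM (0.99, 0.89 to 1.09). These 2 genes were also higher in CD25KO than in CD25WT among cells with 0 markers. There Ly6a stood at 439 and 209 CPM and Ifi27l2a at 2336 and 1456 CPM, so their difference is not particular to the strongest responders.

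The CD25KO members with 5 to 8 markers were divided by Cxcl10. The 39 cells with a Cxcl10 UMI had a median of 5224 UMIs and 44 UMIs of CD4 T cell genes, and the 60 without had 5097 and 44.5, and none of the 99 lacked CD4 T cell UMIs. Treg identity genes summed to 4094 CPM in the cells with Cxcl10 and 2573 CPM in those without, effector genes to 4588 and 7128 CPM, and central resting genes to 1511 and 2256 CPM. Myeloid genes summed to 161 and 110 CPM and B cell genes to 666 and 342 CPM, and their part in the result was not tested. The cells were divided by a gene chosen after its values were seen, so these levels are a description.

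**Figure D5:**
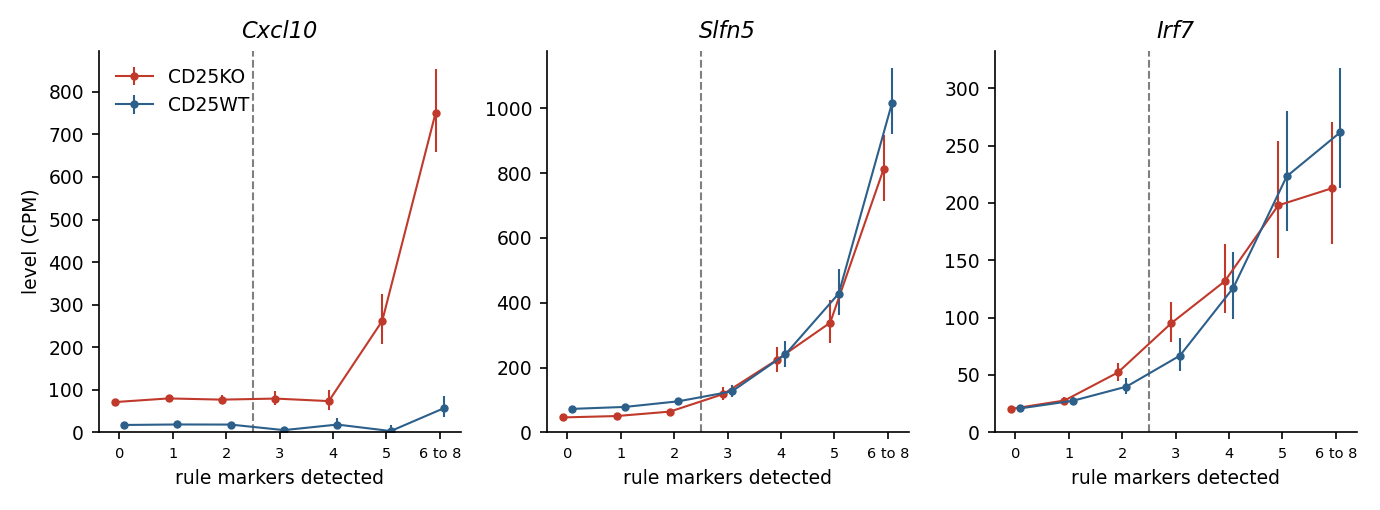
Level (CPM, linear axis) of Cxcl10, Slfn5 and Irf7 by the number of rule markers detected, in CD25KO and CD25WT. Bars are exact 95% counting intervals. Slfn5 and Irf7 are higher at 6 to 8 markers than at 0 in both libraries, while Cxcl10 in CD25KO is level up to 4 markers and reaches 751 CPM at 6 to 8, against 57.0 CPM in CD25WT.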

How the data were processed

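Sorted splenic Tregs of each genotype gave 1 library of the 10x Chromium 3' kind, per the labels' protocols. The authors deposited raw UMI counts of 32285 genes for every barcode, unnormalized. Per the file headers, Cell Ranger 6.0.0 wrote them. The submitters' processing notes name mm10, while the sources used here do not name the annotation behind the counting.

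Cells with at least 500 detected genes, at most 10% mitochondrial UMIs and no Cd79a UMI were kept. The members, the 27 gene lists and the alternatives were chosen with earlier results of these data known. The named genes are the 8 rule markers, the 25 highest and 8 lowest in members over others in both libraries, the 10 highest and 10 lowest CD25KO over CD25WT in members, up to 6 genes per list by level, the genes of interferon signalling, Il2ra and Foxp3. Some genes that this rule names are not reported here. Other genes of the lists, and the division by Cxcl10, were chosen after their values were seen. Rankings left out ribosomal protein, mitochondrial, haemoglobin, antigen receptor, Xist, Y-linked and unnamed genes.

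UMIs were summed per group of cells and scaled to 1000000 (CPM) over all genes. A gene counts as measured where it averaged 50 CPM or more over the groups compared. Ratios carry the exact conditional interval, CPM the exact Poisson interval and shares the Clopper-Pearson interval (SciPy 1.17.1), all for counting error only, since UMIs of pooled cells do not measure variation between mice. Free RNA can give UMIs in cells that do not express a gene, so shares are printed beside those of the other cells. A summed level mixes the number of expressing cells and the RNA per cell. The ratio step was tested on simulated data. Alternatives were other marker numbers, cell filters, gene minimums, thinning, equal weight per cell, totals without ribosomal protein and mitochondrial genes, median-of-ratios and TMM factors (edgeR 4.0.16) and, added after seeing the data, leaving out haemoglobin-rich cells. Promoters are RefSeq windows on GRCm38.p6.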

Additional observations from a re-analysis of the deposited data

Results flagged for a closer look

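5 genes had members-over-others ratios of opposite sign in the 2 libraries, with both counting intervals away from 0. This count stands beside 2631 genes measured in CD25KO and 2291 in CD25WT. Among so many genes counting error alone can give a few such cases, and the difference between the libraries was not tested. Hspa5, an endoplasmic reticulum chaperone, had a log2 ratio of -0.18 in CD25KO (301 CPM in members and 342 in other cells) and 0.19 in CD25WT (252 and 221 CPM). Chmp5, a membrane-sorting protein, had -0.20 in CD25KO (87.0 and 99.996 CPM) and 0.22 in CD25WT (87.4 and 74.8 CPM). Itgb1 had 0.16 in CD25KO (496 and 442 CPM) and -0.21 in CD25WT (133 and 155 CPM). Thy1, a T cell surface protein, had 0.27 in CD25KO (215 and 179 CPM) and -0.19 in CD25WT (185 and 211 CPM). Tpt1, the translationally controlled tumour protein, had 0.0301 in CD25KO (8421 and 8248 CPM) and -0.03 in CD25WT (10164 and 10355 CPM).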

How the results depend on the processing

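No paired analysis was possible because each genotype has 1 library. With at least 2 markers, members were 13.5% of CD25KO and 14.5% of CD25WT cells, 22 and 27 genes were at least 2-fold higher in members than in other cells, and the type I list ratio of CD25KO over CD25WT (log2) was 0.27 in members and 0.22 in other cells. With at least 4 markers, shares were 2.80% and 3.24% and 69 genes were higher in CD25WT members than in other cells. The stricter cell filter gave 7.21% and 7.51% and a type I ratio of 0.26 in other cells. Thinning to 2000 UMIs gave 2.45% and 2.31%, and 0.20 for the type I list in other cells. It gave 103 and 88 genes higher in members, and 139 higher and 28 lower in CD25KO over CD25WT members. These counts rest on 160 CD25KO and 138 CD25WT members of 2000 UMIs each, so counting error weighs more in them. Without the highest 5% of cells by UMIs, the type I ratio was 0.33 in members and 0.24 in other cells and the marker ratio 0.18. Totals without ribosomal protein and mitochondrial genes gave 27 genes lower in CD25KO members, and 0.13, -0.0448 and 0.0306 for the type I list in members, the markers and the type I list in other cells. Median-of-ratios factors gave 40 higher and 16 lower genes, and 0.11, -0.0692 and -0.0039, and TMM factors 41 and 21, and 0.0836, -0.0912 and -0.0053. Equal weight per cell gave 0.32, 0.25 and 0.20. A gene minimum of 20 CPM gave 72 genes higher in CD25WT members than in other cells, 184 higher and 27 lower in CD25KO over CD25WT members. A minimum of 100 CPM gave 33 and 27 genes higher in members, and 26 higher and 4 lower between the genotypes. The number of genes measured under each alternative is not given here, so these counts cannot be compared as shares.

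Ccl5, a chemokine, turned from a log2 ratio of 1.41 in CD25WT members over other cells to -1.63 with at least 4 markers and -2.07 after thinning. Without haemoglobin-rich cells, chosen after seeing the data, Hbb-bs and Hba-a2 turned to -0.11 and -0.32 in CD25KO, and Hbb-bt, Hbb-bs, Hba-a1 and Hba-a2 to -0.16, -0.0684, -0.0397 and -0.55 in CD25WT; these 2 changes come from the cells left out, and the cause of the Ccl5 change was not tested. Over the 13 alternatives that apply to single genes, 6669 of 8736 gene ratios moved by less than their counting interval. With 1 library per genotype, pooled mice and sparse markers, all values describe these 2 libraries, and a cell with few UMIs can miss the rule for lack of depth.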

Other observations

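Genes induced mainly by interferon gamma behaved unevenly in members. Irf1 stood at 138 CPM in CD25KO members and 129 in other CD25KO cells, and at 135 and 103 CPM in CD25WT. Cxcl9, the chemokine next to Cxcl10, stood at 1.21 and 1.91 CPM in CD25KO. The IFITM membrane proteins, which block viral entry, went in different directions. Ifitm2 stood at 40.3 and 68.2 CPM in CD25KO and at 5.62 and 13.6 CPM in CD25WT. Ifitm3 stood at 33.4 and 25.5 CPM in CD25KO and at 34.1 and 5.00 CPM in CD25WT, where 36 members had a UMI. Treml2, a surface receptor of the TREM family, was higher in members of both libraries, at 29.8 and 12.7 CPM in CD25KO and at 73.5 and 37.9 CPM in CD25WT. Ly6c1 was also higher, at a log2 ratio of 1.57 in CD25KO and 0.56 in CD25WT.

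Ccl5 in CD25WT members rested on few cells: it stood at 86.6 CPM in CD25WT members and 32.5 in other CD25WT cells, and 1 cell held 102 of the 231 UMIs.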
